A study of Mus musculus with 16 samples.

Results

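The histone deacetylases Hdac1 to Hdac9 were examined in RNA-immunoprecipitation and sequencing (RIP-seq) libraries made with an antibody against CPEB4 from mouse BMDMs, macrophages that are differentiated in culture from bone marrow cells with M-CSF. The 9 genes were selected by symbol, as the gene Hdac1 and its relatives, and they held 23 distinct 3′-UTR regions of 26892 regions from 14925 genes. Hdac1 itself was picked out by a measured value, the ratio of its reads in the untreated wild-type (WT) RIP over those in the untreated CPEB4 knockout (KO) RIP. That contrast, and every ratio that uses one of these 2 libraries, is therefore given for Hdac1 as a description. The LPS-treated libraries played no part in the choice, and the untreated Inputs entered it only through a minimum of 10 reads in each.

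The WT cells came from a culture numbered 76 and the KO cells from a culture numbered 73, both of the strain labelled C57BL/6J 129. KO cells came from mice that lack Cpeb4 in the whole body, according to the study's methods, and the age of the mice is given only as adult. Each culture was left untreated or received LPS, a bacterial cell wall component, at 10 ng/ml for 9 hr. RIP libraries hold the RNA recovered with the antibody from formaldehyde-crosslinked, sonicated lysates, whereas Input libraries hold the RNA of the lysates, in which ribosomal RNA was depleted. With 1 library for each genotype, treatment and assay (8 libraries, each run on lanes 7 and 8, which the deposited tables sum), no difference has a replicate check. Genotype and culture cannot be told apart. No test across samples was possible, and every interval is a 95% interval from the reads that covers counting error only.

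CPEB4 binds RNA at the cytoplasmic polyadenylation element (CPE), a U-rich motif of mRNA 3′ ends, and can promote the stability and translation of its target mRNAs. Histone deacetylases remove acetyl groups from histones and other proteins. The class I enzymes Hdac1 and Hdac2 are the catalytic subunits of the Sin3, NuRD and CoREST corepressor complexes, and Hdac3 is that of the NCoR/SMRT complex. Hdac8, also of class I, works outside these complexes and deacetylates the cohesin subunit Smc3. The class IIa enzymes Hdac4, Hdac5, Hdac7 and Hdac9 have little catalytic activity of their own, shuttle between nucleus and cytoplasm and bind MEF2 transcription factors. Hdac6, of class IIb, is a cytoplasmic enzyme that deacetylates tubulin. In macrophages, deacetylase complexes are known for restraining inflammatory genes.

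For each gene the region with the most reads over the 8 libraries is called its leading region. That of Hdac1 is the 505-base 3′-UTR of transcript ENSMUST00000102597, at chr4:129516104-129516608 on the minus strand (mm10), which ends where the annotated gene ends. It held 2 CPEs, 1 of the related G-containing motif TTTTGT, 1 AU-rich pentamer ATTTA and 1 polyadenylation signal, which is AATAAA or its common variant ATTAAA. The CPE searched on the sense strand was TTTTAT in its canonical form, or one of its variants, which were TTTTAAT with another A, TTTTAAAT with a further A, TTTTACT with an inserted C, TTTTCAT with the C placed earlier, or TTTTAAGT with a G. Of the 2771 regions whose length was within 20% of that of Hdac1, 48.9% held a CPE, 35.1% TTTTGT, 46.9% ATTTA and 76.8% a polyadenylation signal. The CPE TTTTCAT of Hdac1 lay 44 bases from the 3′ end of the region, next to TTTTGT at 39 bases, whereas its TTTTAT lay 452 bases from the end. The windows below are shown because they hold CPEs, the motif that CPEB4 is known to bind. They come from Hdac1, its paralog Hdac2 and the class IIa members with the most WT RIP reads. Of the 6 CPEs of Hdac9, only the 2 nearest the 3′ end of its region are shown. Capitals mark the motif, and every sequence was read from the GRCm38 genome, the same build as mm10, in the direction of transcription.
Hdac1, chr4:129516545-129516572: cacttctcagaTTTTATattttctattc
Hdac1, chr4:129516137-129516164: ttttgagataTTTTCATtttgtgaaact
Hdac2, chr10:37001633-37001660: cattggcttcaTTTTATactgttttggc
Hdac2, chr10:37001700-37001727: ttcttggcaagTTTTATtgtgagttttt
Hdac7, chr15:97792664-97792691: tctgaacaatatatgTTTTATttgcttt
Hdac9, chr12:34371777-34371804: aaaacctatttTTTTATaatgtcatttg
Hdac9, chr12:34371867-34371894: tttaaaatacaTTTTATttggggaggaa

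The leading regions of the other deacetylases differed in length and in motif content. Hdac9 had the longest one, of 2324 bases and 34.0% GC, with 6 CPEs, 6 TTTTGT, 7 ATTTA and 6 polyadenylation signals, where regions of like length held a median of 4 CPEs and 3 ATTTA. It belongs to transcript ENSMUST00000110819, which ends 323923 bases before the end of the annotated gene. Its reads thus leave out the 3′ end of the annotated gene. Whether they come only from that short form was not tested. Hdac2 had the shortest, of 330 bases and 31.2% GC, with 2 CPEs and 2 TTTTGT. Hdac3 and Hdac8 held 2 CPEs each and Hdac4 held 3. The 1033-base region of Hdac7 held a single CPE, 7 bases from its end, and no ATTTA or polyadenylation signal. Hdac5 and Hdac6 held no CPE. In the authors' own CPE annotation, a translational prediction was listed for the leading regions of Hdac3 (activation), Hdac4 and Hdac8 (repression), and none for those of Hdac1, Hdac2, Hdac5, Hdac6, Hdac7 and Hdac9. Hdac1, Hdac3 and Hdac8 thus had the same number of CPEs and of TTTTGT, with 2 and 1 in each region.

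**Figure D1:**
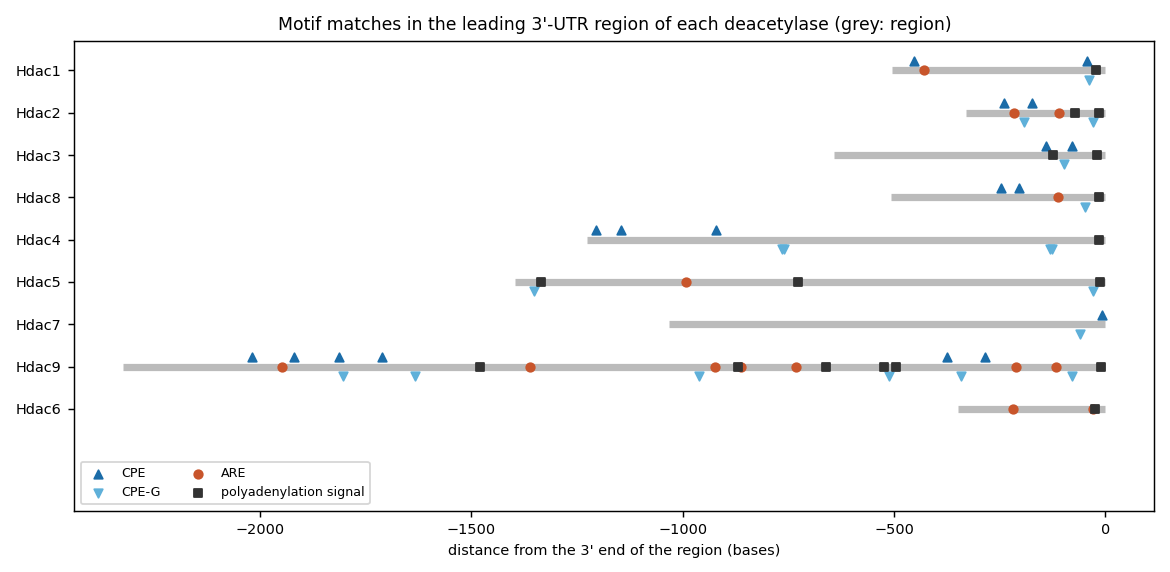
Positions of motif matches in the leading 3′-UTR region of each deacetylase. The x axis gives the distance from the 3′ end of the region in bases, each grey bar is a region, and markers stand for CPEs, the G-containing CPE, AU-rich pentamers (ARE) and polyadenylation signals. Hdac1 has 1 CPE close to its end and 1 near its start, and the 2324-base region of Hdac9 has the most motifs.

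Among the 9 leading regions, near-identical copies were found for Hdac1 alone. A search of the genome found 7 stretches outside the gene that align to the Hdac1 region over at least 50 bases, with 85.6% to 96.9% identity. The closest, at 96.9% over 512 bases on chromosome 17, lies 6 bases from the annotated gene Gm10093, and another, at 91.8% over 511 bases on chromosome 12, lies in the processed pseudogene Gm4864. Of the 406 possible 100-base windows of the Hdac1 region, the length of the reads, 63 were identical in at least 1 copy. The other 8 leading regions had 0 such copies. Reads from such windows cannot be assigned to a single place, and the methods state local alignment with default options but not whether reads with several equal matches were kept, so the read counts of Hdac1 are less certain than their intervals say. The leading region of Hdac7 shares 29 bases with an exon of Slc48a1 on the other strand, and since the counting is not stated to use strand, reads there cannot be told apart.

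The 8 libraries held 467696 to 2492300 reads over regions with a gene symbol, with the untreated KO RIP the smallest. Levels and ratios were scaled to these sums, which made up 27.3% of the library total in the untreated KO RIP and 70.1% in the LPS-treated WT RIP. Scaling to library totals instead raises every WT over KO RIP ratio by 0.84 (untreated) or 1.14 (LPS) on the log2 scale, so ratios below are relative to the 3′-UTR reads. Macrophage markers held 1764 to 4482 RPM (scaled to the same sums) in every library. All 8 of these markers with a region had reads in every library, but Lyz2 alone gave 2197 of their 3305 reads in the untreated WT Input. The T cell markers held at most 9.05 RPM (Cd3e at 0 in 5 libraries) and B cell, neutrophil, dendritic cell and fibroblast markers at most 4.28. Only 1 of 5 neutrophil, 1 of 3 fibroblast, 2 of 3 B cell and 3 of 4 T cell markers had a region. These low sums thus rest on few genes. The LPS-response genes held 44.9 to 72.1 RPM in untreated and 2391 to 3780 in LPS-treated libraries. Cpeb4, the targeted gene, held 130.2 and 136.0 RPM in the WT Inputs and 52.0 and 52.6 in the KO Inputs. In the RIPs it held 836 and 770 RPM in WT and 257 and 367 RPM in KO cells, so it lay above its Input level in both genotypes. These reads lie in its 3′-UTR and do not show whether the coding part was deleted.

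Among the leading regions, Hdac1 had the highest level in 7 of the 8 libraries. Its leading region had 33 (WT, untreated), 96 (WT, LPS), 40 (KO, untreated) and 98 (KO, LPS) Input reads. In the RIPs it had 84 (WT, untreated), 267 (WT, LPS), 2 (KO, untreated) and 50 (KO, LPS) reads. The low value was thus that of the untreated KO RIP, and the high value that of the LPS-treated WT RIP. Levels per length are given as RPKM computed on the 3′-UTR reads, not on the library total. That of Hdac1 was 70.3 in the untreated WT Input, with an exact Poisson interval of 48.4 to 98.8. It was 100.2 (81.2 to 122) in the LPS-treated WT Input, 59.7 (42.7 to 81.3) in the untreated KO Input and 129.2 (105 to 157) in the LPS-treated KO Input. In the RIPs the level was 99.8 (79.6 to 124) in untreated and 212.1 (187 to 239) in LPS-treated WT cells, against 8.47 (1.03 to 30.6) and 113.6 (84.3 to 150) in KO cells. In bulk samples such as these, fewer expressing cells and less RNA per cell cannot be told apart.

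Among the leading regions, those of Hdac3 and Hdac7 were the next most abundant in the Inputs. Hdac3 had levels per length of 52.9 to 56.4 in the 4 Inputs, a range narrower than the interval of any of them. In the untreated Inputs the intervals of Hdac1 and Hdac3 overlapped, at 70.3 against 53.7 in WT and 59.7 against 56.4 in KO cells. After LPS they did not, at 100.2 against 54.2 and 129.2 against 52.9. Hdac7 followed with 21.4 to 36.1, and Hdac4 had 2.17 to 17.8. Hdac2 had 6.52 to 22.9 on 2 to 10 reads. The leading regions of Hdac5, Hdac6, Hdac8 and Hdac9 each had a level of at most 11.4 in any Input. In the untreated WT Input their intervals overlapped one another. The short overlapping regions of Hdac5, of 78 to 125 bases, had Input levels of 16.0 to 67.7 on 2 to 8 reads. In the untreated KO Input the 78-base one lay above Hdac1, at 67.7 (27.2 to 139) on 7 reads. From the fourth place downwards, neighbours in the order of levels had overlapping intervals in each of the 4 Inputs. In the WT RIPs Hdac2 and Hdac3 followed Hdac1 with overlapping intervals, at 50.9 and 47.7 untreated and at 34.0 and 38.1 after LPS.

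**Figure D2:**
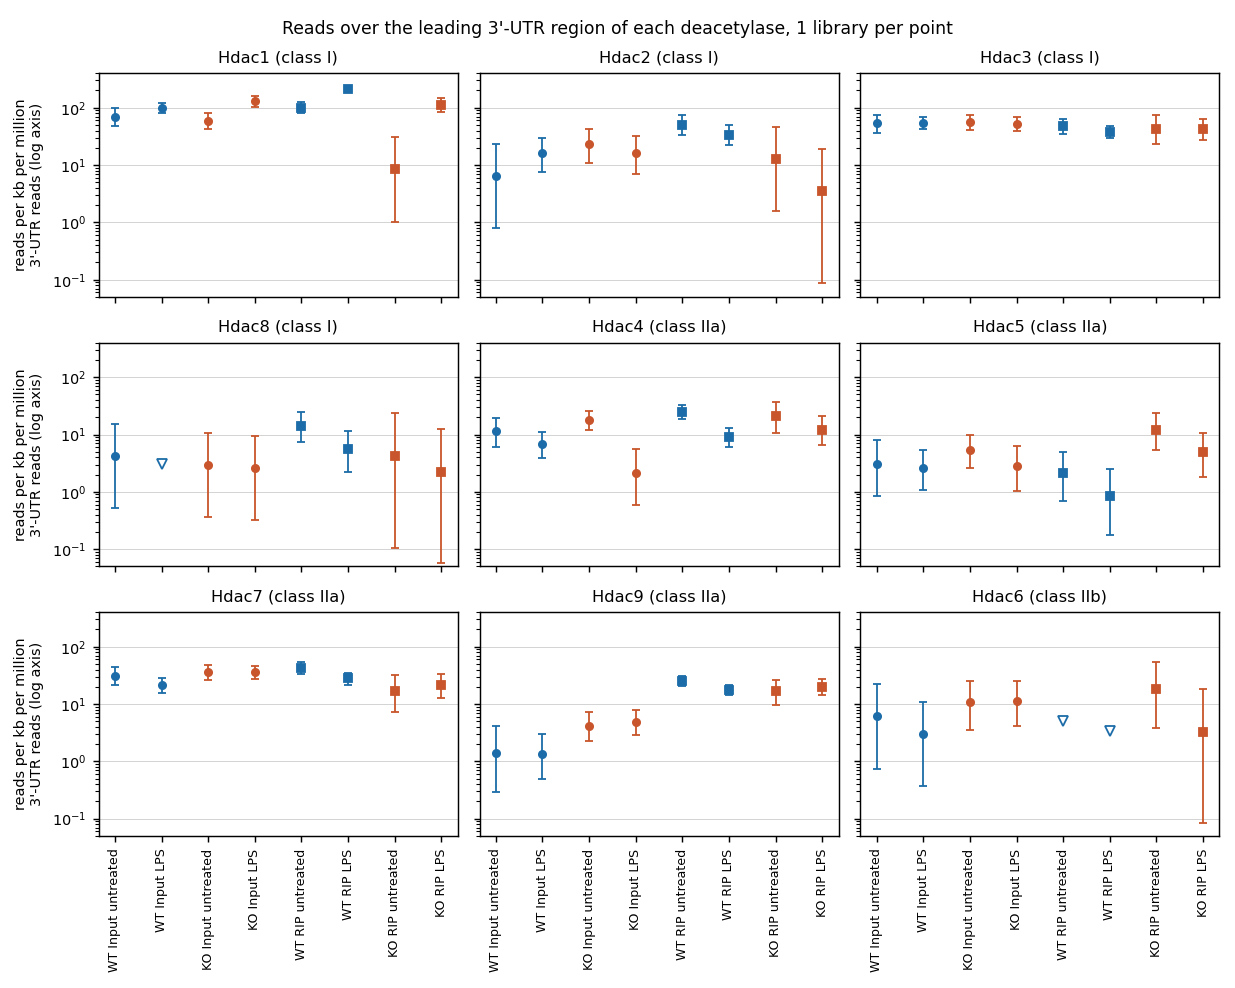
Level of the leading region of each deacetylase in every library, in RPKM on 3′-UTR reads on a log axis, with exact Poisson 95% intervals. WT libraries are blue and KO libraries orange, circles are Inputs and squares RIPs, and an open triangle marks a library with 0 reads at the level of 3 reads. Hdac1 is the highest in every library but the untreated KO RIP, where it had 2 reads.

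The comparison of WT with KO RIPs addresses which mRNAs depend on CPEB4 for their recovery. In untreated cells, the contrast used to choose Hdac1, the log2 ratio of Hdac1 was 2.99 (1.33 to 4.65), from 84 WT and 2 KO reads. Among the 3673 genes with at least 50 WT RIP reads and at least 10 reads in both Inputs it ranked 2, between Hnrnpd at 3.42 and Ccl3 at 2.80. Had the untreated KO RIP held Hdac1 at its KO Input level, it would have had 14.1 reads. The RIP over Input log2 ratio in untreated KO cells was -2.27 (-3.96 to -0.58), and 7655 of 7708 genes lay higher. In WT cells it was 0.48 (-0.09 to 1.05), with 3141 of 8359 genes higher. Most of the untreated input-corrected value of 2.75 (0.96 to 4.53) thus lay on the KO side, in 2 reads.

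After LPS, in libraries that the choice did not use, Hdac1 was again higher in the WT RIP, though by less. It had 267 reads in the WT RIP and 50 in the KO RIP, and the log2 ratio was 0.88 (0.45 to 1.31), or 1.84-fold. This was below 2-fold, and 1062 of 8310 genes had a larger ratio. On library totals the value was 2.02. The Inputs showed no such difference, with log2 ratios of 0.24 (-0.41 to 0.90) in untreated and -0.37 (-0.77 to 0.04) in LPS-treated cells. With the Input ratio subtracted, the LPS value of Hdac1 was 1.24 (0.65 to 1.84), and 772 of 9453 genes lay higher. From untreated to LPS the WT over KO RIP ratio fell by 2.11 (interval -3.83 to -0.40), as a change that includes the value Hdac1 was chosen on.

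Hdac2, the closest relative of Hdac1 and its partner in the same complexes, had few reads, and its WT over KO RIP ratio was above 0 beyond counting error after LPS but not in untreated cells. Its leading region had 28 WT and 2 KO RIP reads in untreated cells and 28 and 1 in LPS-treated cells. Log2 ratios were 1.44 (-0.27 to 3.16) and 2.34 (0.27 to 4.41), and after LPS 31 of 8310 genes had a larger one. The Inputs had 2 WT and 10 KO reads untreated and 10 and 8 after LPS. A second Hdac2 region, of 2153 bases at chr10:36993959-36996111, had 0 reads in both WT RIPs and 5 in the untreated KO RIP. It belongs to another transcript. With both regions summed, the untreated log2 ratio of Hdac2 was 0.03 (-1.10 to 1.15), while that after LPS stayed at 2.34.

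For Hdac3 the WT and KO libraries were close in each of the 4 pairs. It had 51 and 13 RIP reads untreated and 61 and 24 after LPS, with log2 ratios of 0.06 (-0.79 to 0.91) and -0.21 (-0.88 to 0.46). Its Input log2 ratios were -0.06 (-0.69 to 0.58) and 0.03 (-0.49 to 0.55). Hdac8 had 12 and 1 RIP reads untreated, and 7 and 1 after LPS, against 2 or fewer in each Input. Its log2 RIP ratios of 0.87 (-1.28 to 3.02) and 0.48 (-1.75 to 2.72) were not distinguishable from 0 at this depth.

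The class IIa enzymes did not share a direction. Hdac7 had 73 WT and 8 KO RIP reads in untreated cells, a log2 ratio of 1.21 (0.21 to 2.21), and 72 and 19 after LPS, a log2 ratio of 0.35 (-0.36 to 1.07). In the LPS-treated Inputs it was lower in WT, at -0.74 (-1.31 to -0.17) from 42 and 56 reads, so that its input-corrected ratio after LPS was 1.10 (0.18 to 2.01). Hdac9 had 98 and 18 RIP reads untreated and 102 and 40 after LPS, with log2 ratios of 0.55 (-0.16 to 1.26) and -0.19 (-0.71 to 0.34). In the Inputs it was lower in WT, with 3 and 13 reads untreated, at -1.29 (-2.90 to 0.31), and 6 and 17 after LPS, at -1.70 (-2.96 to -0.44). Hdac4 had 51 and 12, then 28 and 13, with log2 ratios of 0.17 (-0.71 to 1.04) and -0.47 (-1.39 to 0.45). Hdac5 went the other way, with 5 and 8 reads, then 3 and 6, and log2 ratios of -2.42 (-3.91 to -0.93) and -2.32 (-4.10 to -0.55). A shorter Hdac5 region that overlaps most of its length with the leading one, chr11:102195744-102195868, had 7 WT and 1 KO RIP reads untreated, a log2 ratio of 0.17 (-2.07 to 2.40), whose interval overlaps that of the long region. Hdac6, the class IIb enzyme, had 0 reads in both WT RIPs and 3 and 1 in the KO RIPs, too few for a ratio, and 2 to 6 in the Inputs. After LPS the negative RIP values of Hdac3, Hdac4 and Hdac9 turned positive on library totals, at 0.94, 0.68 and 0.95, and those of Hdac3 and Hdac9 also with TMM scaling, at 0.13 and 0.15.

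These ratios were set against all regions. In the untreated RIPs, 8 of the 14 member regions that had 10 or more reads over both libraries were more than 2-fold higher in WT, but 6 of the 8 are overlapping regions of Hdac7 and the others are Hdac1 and Hdac2. Over all regions 9.48% were higher by that much and 16.2% lower (37.4% and 2.26% on library totals), and of the members only the long Hdac5 region was lower. The rule used this contrast, and nothing is read from it. After LPS 1 of 12 member regions was more than 2-fold higher in the WT RIP, that of Hdac2, where 9.25% of all regions were (51.6% on library totals). In the untreated Inputs 2 of 16 member regions, those of Hdac2 and Hdac9, were more than 2-fold lower in WT, against 4.81% of all regions. In the LPS-treated Inputs 1 of 15 was higher (Hdac4) against 3.57%, and 1 was lower (Hdac9) against 2.64%. These are counts of 1 or 2 regions.

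**Figure D3:**
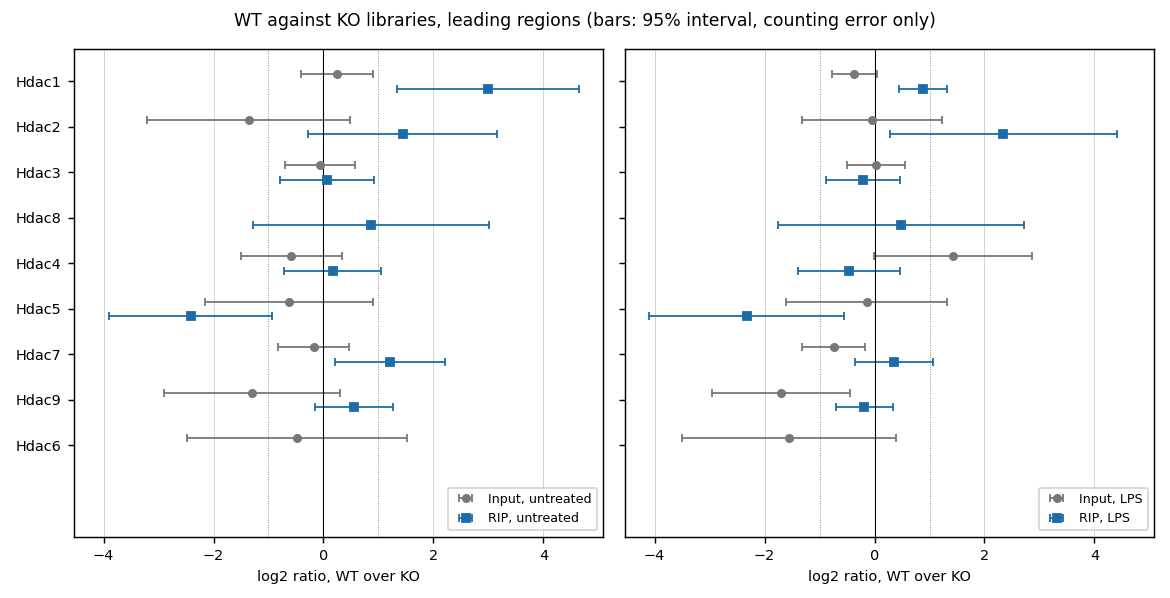
Log2 ratio of WT over KO libraries for the leading region of each deacetylase, untreated (left) and after LPS (right). Grey circles are Inputs and blue squares RIPs, bars are 95% intervals for counting error, dotted lines mark 2-fold, and a gene without a point had 3 or fewer reads in each library. The RIP ratio of Hdac1 is 2.99 untreated and 0.88 after LPS, and that of Hdac5 is below 0 in both panels.

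In WT cells, recovery in the RIP relative to Input was highest for Hdac9, not for Hdac1. Hdac9 had 3 Input and 98 RIP reads in untreated WT cells and 6 and 102 after LPS. The log2 ratios were 3.79 (2.34 to 5.23) and 3.49 (2.38 to 4.59), and in each treatment 64 genes had a larger one, of 8359 and of 8767. The KO RIPs gave ratios above 0 too, of 1.94 (0.95 to 2.94) from 13 Input and 18 RIP reads and of 1.97 (1.17 to 2.77) from 17 and 40 reads. Hdac9 thus lay above its Input level in the KO RIPs too, although on library totals these 2 values fall by 0.77 and 0.68. Its input-corrected WT over KO ratio was 1.84 (0.09 to 3.60) untreated and 1.51 (0.15 to 2.88) after LPS, where the WT Input reads were 3 and 6.

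Hdac1 was recovered above its Input level most clearly in WT cells after LPS. There its RIP over Input log2 ratio was 1.07 (0.74 to 1.41), from 96 Input and 267 RIP reads, and in KO cells it was -0.17 (-0.66 to 0.32), from 98 and 50. Hdac2 had 2.43 (0.72 to 4.15) untreated and 1.01 (0.00 to 2.01) after LPS in WT cells. For Hdac4 the ratio was above 0 in untreated WT cells, at 1.05 (0.20 to 1.90), and in LPS-treated KO cells, at 2.27 (0.80 to 3.74), where its Input had 4 reads. Hdac3, at -0.19 (-0.82 to 0.44) untreated and -0.51 (upper bound -0.01) after LPS in WT cells, stayed at or under its Input level. Hdac8 had 7 RIP and 0 Input reads in LPS-treated WT cells, at least 1.78-fold higher in the RIP against a floor of 3 reads in that Input. More than 2-fold above Input were 4 of 16 member regions in untreated WT cells (all regions 25.6%), 4 of 16 after LPS (23.2%), 3 of 13 in untreated KO cells (19.5%) and 2 of 11 in LPS-treated KO cells (18.8%). The overlapping regions of Hdac7 and Hdac5 weigh in these counts. With 1 region per gene they were 4 of 7 (all genes 25.5%) untreated and 3 of 7 (23.5%) after LPS in WT cells. In KO cells they were 2 of 7 (18.2%) and 2 of 6 (17.2%). By region the deacetylases thus lay near the share of all regions. By gene they lay above the share of all genes, but on 2 to 4 of 6 or 7 genes, from which nothing is read. The untreated counts also use the RIPs on which Hdac1 was chosen.

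After LPS, Hdac1 had higher values in each of the 4 pairs of libraries. Its reads went from 33 to 96 in the WT Input and from 84 to 267 in the WT RIP, on sums that rose less. The log2 ratio of LPS over untreated was 0.48 (-0.08 to 1.05) in the WT Input and 1.09 (0.57 to 1.62) in the KO Input. In the RIPs it was 1.08 (0.72 to 1.43) in WT cells and 3.19 (1.51 to 4.87) in KO cells, the latter from 2 and 50 reads. Of the 4 values 3 lie past 2-fold, and that of the WT Input has an interval that includes 0. Both RIP values use the untreated RIPs on which Hdac1 was chosen, so they and their ranks are a description. Since the median of all genes lay at -0.08 and -0.18 in the Inputs and at -0.24 and -0.20 in the RIPs, Hdac1 stood above the middle of the data in each pair, with 2201 of 8163 (WT Input), 996 of 8250 (KO Input), 986 of 8901 (WT RIP) and 155 of 7227 (KO RIP) genes higher. The Input change did not differ between the genotypes beyond counting error, with a WT minus KO difference of -0.61 (-1.38 to 0.16).

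Counted over regions, 0 of 14 member regions were more than 2-fold higher after LPS in the WT Input (15.2% of all regions), against 1 of 18 in the KO Input (13.8%), 1 of 16 in the WT RIP (12.3%) and 1 of 11 in the KO RIP (14.5%). The 1 region was that of Hdac1 each time, and in the RIPs this uses the untreated libraries on which Hdac1 was chosen. In the WT RIP the change of Hdac1 was 1.60 on library totals and 1.45 with TMM scaling.

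Hdac4, by contrast, had lower values after LPS. It had 51 reads in the untreated and 28 in the LPS-treated WT RIP, a log2 ratio of -1.42 (-2.08 to -0.77). In the KO Input it went from 29 to 4 reads, a log2 ratio of -2.77 (-4.13 to -1.40), whereas in the WT Input it had 13 and 16 reads and a log2 ratio of -0.75 (-1.77 to 0.27). Its second region, of 590 bases at chr1:91932757-91933346, also had fewer reads in the WT RIP, 17 and 10, with a log2 ratio of -1.29 (-2.37 to -0.21). Hdac8, Hdac7 and Hdac9 were lower in the LPS-treated WT RIP as well, at -1.28 (-2.55 to -0.01), -0.60 (-1.07 to -0.13) and -0.52 (-0.92 to -0.13). On library totals the intervals of Hdac7 (-0.08), Hdac9 and Hdac8 (-0.76) included 0, as they did with TMM and median-of-ratios scaling, while Hdac4 was at -0.90 (-1.56 to -0.25). Hdac3 had intervals that include 0 in all 4 pairs, with values from -0.33 to -0.01. More than 2-fold lower were 6 of 16 member regions in the WT RIP (all regions 21.2%, or 11.4% on library totals) and 5 of 18 in the KO Input (20.4%), of which 3 and 4 were overlapping short regions of Hdac5 with 3 to 8 reads a library.

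**Figure D4:**
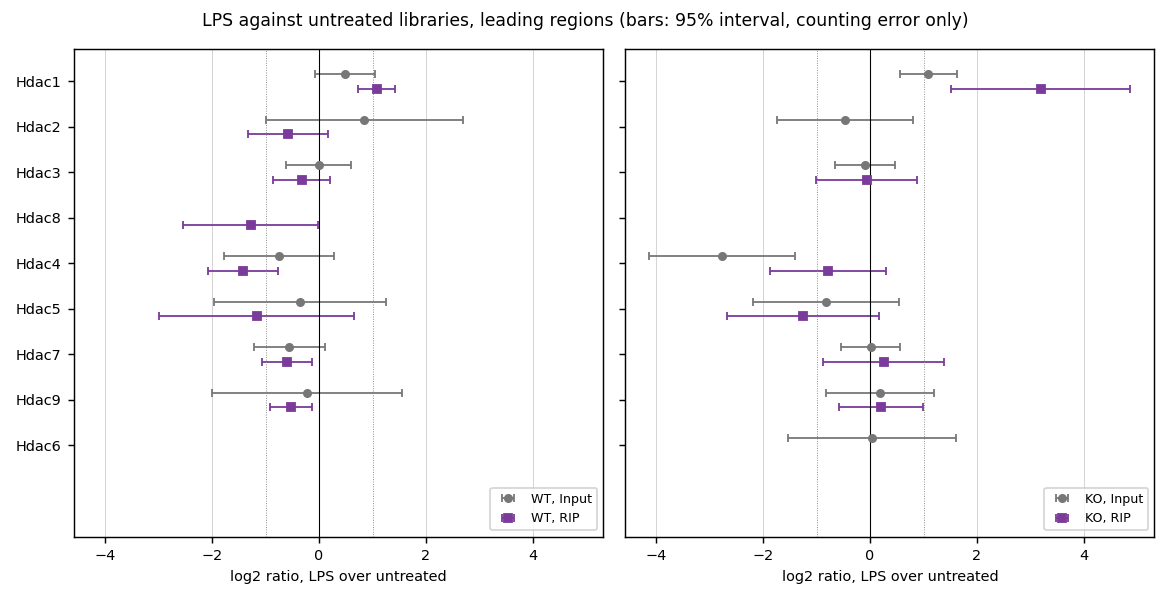
Log2 ratio of LPS-treated over untreated libraries for the leading region of each deacetylase, in WT (left) and KO (right) cells. Grey circles are Inputs and purple squares RIPs, bars are 95% intervals for counting error and dotted lines mark 2-fold. Hdac1 lies to the right of 0 in all 4 comparisons, from 0.48 to 3.19, and Hdac4 to the left. The RIP values of Hdac1 use the untreated RIPs on which it was chosen.

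Comparing Hdac1 with each other member inside the same pair of libraries does not depend on the scaling. In the WT RIP, the LPS change of Hdac1 was larger than that of each of the 7 members with a value, by 1.40 (0.77 to 2.04) against Hdac3 up to 2.50 (1.76 to 3.24) against Hdac4, and all 7 intervals lay above 0. This pair includes the untreated WT RIP that entered the choice of Hdac1. For the KO Input, whose untreated library entered the choice only through a read minimum, it was larger than that of all 7, with 5 intervals above 0. In the WT Input it was larger than that of 5 of 6, with 2 intervals above 0 (Hdac4 and Hdac7), and lower than that of Hdac2 by 0.36 (interval -2.29 to 1.56). In the KO RIP all 5 intervals lay above 0, on the 2 untreated reads of Hdac1. For the WT over KO RIP ratio after LPS, Hdac1 was above Hdac3 by 1.08 (0.29 to 1.88), Hdac9 by 1.06 (0.39 to 1.74), Hdac4 by 1.34 (0.33 to 2.36) and Hdac5 by 3.20 (1.38 to 5.03). Its difference from Hdac7 was 0.53 (-0.31 to 1.36), from Hdac8 0.39 (-1.88 to 2.67) and from Hdac2 -1.46 (-3.58 to 0.65), so that Hdac1 was not distinguishable from these 3 at this depth.

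Among the reads of the 9 leading regions, the share of Hdac1 was also higher after LPS. In the Inputs it was 27.3% (Wilson interval 20.1 to 35.8) of 121 reads in untreated and 39.2% (33.3 to 45.4) of 245 reads in LPS-treated WT cells. It was 19.4% (14.6 to 25.4) of 206 and 39.5% (33.6 to 45.7) of 248 reads in KO cells. In the WT RIPs the share was 20.9% (17.2 to 25.1) of 402 reads and 47.0% (42.9 to 51.1) of 568 reads. The KO RIPs gave 2.99% (0.822 to 10.2) of 67 reads and 32.3% (25.4 to 40.0) of 155 reads. Untreated and LPS-treated intervals did not overlap in the KO Inputs or in either RIP pair, and overlapped in the WT Inputs. The RIP pairs use the untreated RIPs on which Hdac1 was chosen and are a description. All shares come from the same reads as the ratios above, so they are no separate evidence. The share of Hdac9 was 18.0% to 26.9% in the RIPs and 2.45% to 6.85% in the Inputs.

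**Figure D5:**
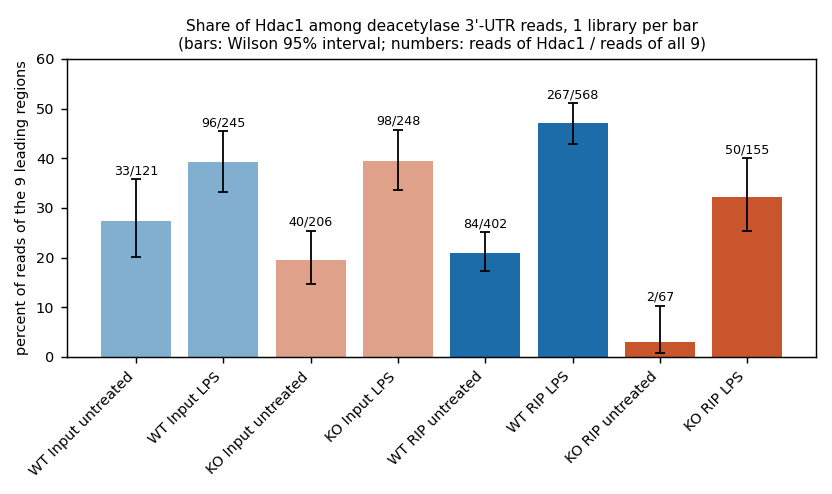
Share of Hdac1 among the reads of the 9 leading deacetylase regions in each library, in percent, with Wilson 95% intervals. Blue bars are WT and orange bars KO, pale for Inputs and full for RIPs, and the reads of Hdac1 and of all 9 regions stand above each bar. The share is higher after LPS in every pair and lowest, at 2.99%, in the untreated KO RIP, a library on which Hdac1 was chosen.

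The genes whose pattern over the 8 libraries was most like that of Hdac1 were sought among 5165 genes with at least 200 reads, by the root mean square difference of centred log2 levels. This measure uses the untreated RIPs that chose Hdac1, and the genes share all 8 libraries and their depth, so it is a description. The closest was Bcl3, a co-regulator of NF-κB, at 0.39, with 103 untreated and 343 LPS-treated WT RIP reads and 7 and 61 KO RIP reads. Lpcat2, an enzyme of phospholipid remodelling, followed at 0.44, Csrnp1 at 0.47, Psmc3ip at 0.48 and Spred2, an inhibitor of Ras-ERK signalling, at 0.48, where the median gene lay at 1.34. Lpcat2 had 0 and Csrnp1 2 reads in the untreated KO RIP. Of the other deacetylases 3 had enough reads to be ranked, with Hdac7 at rank 754 (1.02), Hdac3 at 1568 (1.18) and Hdac9 at 4761 (1.93).

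Of 56 genes for corepressor subunits, MEF2 factors, other deacetylases, sirtuins and acetyltransferases, 55 had a region. In the WT over KO RIP ratio of untreated cells 7 of 47 with at least 10 reads were more than 2-fold higher and 6 lower, where 9.60% and 14.2% of all genes were, and the medians were 0.24 and -0.10. After LPS 4 of 47 were higher and 8 lower (all genes 9.71% and 17.5%), with medians of 0.07 and -0.04. For LPS over untreated in the WT RIP 5 of 49 were higher and 7 lower (all genes 12.1% and 21.9%), with medians of -0.37 and -0.24. Among the 48 with reads in all 4 libraries, the highest input-corrected ratio after LPS was that of Mef2c, a transcription factor that class IIa deacetylases bind, at 1.96 (0.75 to 3.16), from 103 WT and 12 KO RIP reads and 19 and 21 Input reads. The lowest was that of Brms1, a subunit of the Sin3 complex, at -2.15 (-3.41 to -0.90), from 11 and 13 RIP reads and 63 and 37 Input reads. In untreated cells the ends were Sap30, another Sin3 subunit, at 1.82 (-0.90 to 4.55), with 1 KO RIP read, and Ing2, also of the Sin3 complex, at -2.93 (-5.24 to -0.62), with 7 reads in each RIP. The deacetylase partners, like the deacetylases, held values in both directions.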

How the data were processed

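RIP-seq and Input libraries of WT and CPEB4 KO BMDMs were analysed from 4 deposited tables of 31117 3′-UTR rows. According to the study's methods, the authors aligned reads to mm10 with Bowtie2 (version 2.2.2 in the submitters' processing notes), took out duplicates (sambamba) and counted the rest over 3′-UTRs from Ensembl. The deposited read count was the measure used. Library totals were derived from the authors' RPKM. Their fold changes, p-values and MACS (1.4.2) scores compare RIP with Input and were not used. Rows without a symbol (495, 0.902% to 1.04% of reads) were left out.

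The 9 members and the gene lists were chosen with earlier results of these data known. Ratios are log2 of (reads + 1) scaled to the sum over rows with a symbol, with normal 95% intervals, and were tested on simulated data. Pairs in which each library had at most 3 reads have no ratio. Past 2-fold counts cover distinct regions that had 10 or more reads over both libraries. The partner genes named are those with the highest and lowest input-corrected ratio, which subtracts the genotype log2 ratio in the Inputs from the one in the RIPs. The 5 genes most like Hdac1 were named. Copies of the leading regions were sought with BLAST 2.17.0 (word size 20, identity of at least 85%). The alternatives were library totals, TMM (edgeR 4.0.16) and median-of-ratios (DESeq2 1.42.0) scaling, 0.1 read added, the longest region, summed regions, and read minimums of 50 or none. A count with 1 region per gene and exact intervals were added after seeing the data. Precision is limited by 467696 to 2492300 reads per library.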

Additional observations from a re-analysis of the deposited data

Results flagged for a closer look

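The 4 changes below, between untreated and LPS-treated cells, had intervals that did not include 0. They rest on 1 library per arm, the interval covers counting error only, and none of the differences was tested across samples. The WT over KO RIP ratio of Hdac1 changed by -2.11 (-3.83 to -0.40) with LPS. Its RIP over Input ratio in KO cells changed by 2.10 (0.34 to 3.86). Both hold the 2 reads of the untreated KO RIP on which Hdac1 was chosen. For Hdac4 the WT over KO Input ratio changed by 2.02 (0.31 to 3.72) and the RIP over Input ratio in KO cells by 1.97 (0.23 to 3.72). Both hold the 4 reads of Hdac4 in the LPS-treated KO Input. The part of these single low counts in the changes was not tested.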

How the results depend on the processing

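Of 120 values of Hdac1 under alternatives, 114 moved by less than their interval, and 6 moved more. Hdac1 has a single region, so its longest-region and summed-region values, which are among the 114, could not move. On library totals Hdac1 had log2 ratios of 2.02 (WT over KO RIP, LPS), 1.59 (RIP over Input, WT, LPS), -0.86 (RIP over Input, KO, LPS), 1.60 (LPS over untreated, WT RIP) and 2.44 (input-corrected, LPS), and with TMM 1.45 for the LPS change in the WT RIP. All 346 differences between Hdac1 and another member and 772 of 783 values of other members stayed within their intervals. The differences do not depend on scaling, so scaling was not varied for them. The longest region is the leading one for every member but Hdac2, so many of the 346 could not move.

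Counts of member regions past 2-fold were less stable. With at least 50 reads in the pair, 0 were lower in WT over KO in the untreated RIP (all regions 7.55%). In the LPS-treated RIP 0 were higher in WT over KO (9.83%). Each Input count between genotypes was 0 (0.627% to 1.23%). RIP over Input in WT cells gave 2 in each treatment (25.8% untreated and 23.6% after LPS). In KO cells it gave 0 untreated (11.4%) and 1 after LPS (12.8%). Lower after LPS were 0 in the KO Input (16.9%) and 1 in the WT RIP (15.5%). With no filter, over all 23 member regions, 5 were lower in WT over KO in the untreated RIP (all regions 38.0%). In the LPS-treated Input 4 were lower (7.79%). RIP over Input in untreated KO cells gave 5 (46.5%), and 8 were lower after LPS in the KO Input (20.9%). Library totals gave 9 for WT over KO RIP higher after LPS, where TMM and median-of-ratios scaling gave 2 each, 1 for RIP over Input in untreated KO cells and 3 for lower after LPS in the WT RIP. With 1 region per gene there were 3 of 8 for WT over KO RIP higher in untreated cells (all genes 9.60%), the contrast used for the choice. Lower after LPS were 1 of 8 in the KO Input (21.2%) and 2 of 7 in the WT RIP (21.9%). Over all regions, scaling moved the share higher in WT over KO RIP from 9.48% up to 37.4% (untreated) and from 9.25% up to 51.6% (LPS), and the share lower in untreated cells from 16.2% down to 2.26%. The share above Input fell from 19.5% to 6.64% in untreated and from 18.8% to 7.77% in LPS-treated KO cells, and rose from 23.2% to 35.1% in LPS-treated WT cells. For LPS over untreated in the WT RIP, the share higher went from 12.3% to 22.7% and the share lower from 21.2% to 11.4%. Over all alternatives, the number of regions higher in the WT RIP was 704 to 4915 untreated and 776 to 7125 after LPS. The cause was not tested. No paired analysis was possible because each group has 1 library. Depth limits Hdac5, Hdac6 and Hdac8, with at most 12 reads in any library.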
